A study of Homo sapiens with 6 samples.

Results

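The genes described here handle cellular iron: they take it up, store it, export it or sense it. The list named 10 of them: TFRC, TFR2, SLC11A2, STEAP3, SLC25A37, SLC40A1, FTH1, FTL, ACO1 and IREB2. The members were all probe sets (groups of short probes for 1 transcript or gene) that carried one of these symbols in the probe-to-gene table. That gave 31 probe sets of 8 genes, out of 49372 probe sets and 18132 genes on the array, and FTH1 and IREB2 were not analysed here. RNA came from cells labelled NCI-H929, an established human multiple myeloma line, and each of 6 samples was hybridised to 1 Affymetrix array. The 3 PRMT5_down samples held a lentiviral construct against PRMT5, an enzyme that dimethylates arginines of proteins, and the 3 control samples a control lentivirus; cells of both kinds were stably transduced and sorted. The titles call both constructs sponges, while the treatment protocol speaks of a PRMT5 short hairpin in pLKO.1 and of normal NCI-H929 as the comparison. Positive cells were selected with puromycin at 1 µg/mL, and all samples were collected at the same time. Whether replicates were separate cultures or infections is not stated. The p-values therefore reflect spread among these 6 samples alone, and that spread may be technical. The question stated for the series was which genes PRMT5 may target.

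Iron reaches most cells as transferrin, a plasma protein that binds the transferrin receptor and is taken into endosomes. There a reductase turns ferric into ferrous iron and a transporter moves it into the cytosol. From the cytosol it goes to mitochondria for heme and iron-sulfur clusters, into ferritin for storage, or out through ferroportin. A pair of iron regulatory proteins bind hairpins called iron-responsive elements when iron is scarce, which blocks translation of ferritin mRNA and stabilises transferrin receptor mRNA. Red cell precursors take up far more iron than other cells because they make hemoglobin.

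The sequences upstream of TFRC and FTL are shown because TFRC had the largest mean difference between the groups among the 8 genes and FTL varied least over the arrays. Both are the 250 bases before the annotated start, from RefSeq on GRCh38.p14. TFRC lies at chr3:196082091-196082340 on the minus strand and FTL at chr19:48965059-48965308 on the plus strand. Capitals mark every match, on either strand, to 6 short motifs, named with the factors known to bind such letters. GGGCGG is the GC box of the factor SP1. The hypoxia response element has the core ACGTG, bound by hypoxia-inducible factors. Sites for the AP-1 and CREB families resemble TGACGCA, which was the next motif searched. The box bound by the general transcription machinery was searched as TATAAA without ambiguous letters. Factor NF-Y binds ATTGG and its reverse complement. The GATA family of blood cell factors binds AGATAA.
TFRC: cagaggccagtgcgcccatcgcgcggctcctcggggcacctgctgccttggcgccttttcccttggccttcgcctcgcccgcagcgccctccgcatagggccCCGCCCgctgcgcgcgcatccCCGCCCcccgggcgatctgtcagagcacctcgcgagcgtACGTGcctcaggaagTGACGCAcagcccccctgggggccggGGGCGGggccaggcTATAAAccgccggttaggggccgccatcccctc
FTL: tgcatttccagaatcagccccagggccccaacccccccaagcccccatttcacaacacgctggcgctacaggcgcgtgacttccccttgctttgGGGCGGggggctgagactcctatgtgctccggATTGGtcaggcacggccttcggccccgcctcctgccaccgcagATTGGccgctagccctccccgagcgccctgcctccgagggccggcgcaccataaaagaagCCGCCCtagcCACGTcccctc
The TFRC window held 3 matches to the GC box and 1 each to the hypoxia core, the AP-1 and CREB motif and the TATA box, the last at -33 to -28 from the start. The FTL window held 2 matches to the GC box, 2 to the NF-Y motif and 1 to the hypoxia core. Over 35116 windows of 300 bases (250 before and 50 after a start), the GC box was present in 45% of windows, the NF-Y motif in 34.6%, the hypoxia core in 21.4%, the TATA box in 11.5%, the GATA motif in 10.3% and the AP-1 and CREB motif in 2.47%. No match of these motifs overlapped another in the TFRC window.

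The start of the FTL transcript also holds its iron-responsive element, the hairpin that the iron regulatory proteins bind. The stretch shown is chr19:48965332-48965358 on the plus strand. It stops where the window of 50 transcribed bases ends, so the last part of the stem is cut off. Capitals mark the unpaired C of the stem and the loop.
FTL element: tgtctcttgCttcaaCAGTGTttggac
The letters searched were a C, then any 5 bases, then CAGTGN, and the match began at base 33 of the transcript. The same letters stood on the gene's strand within the 50 transcribed bases of 1.67% of all windows, and somewhere on either strand of the 300 bases in 18.5%. The windows of TFRC, SLC11A2, STEAP3, SLC40A1 and ACO1 had no match, which says only that these letters are not there. The elements of TFRC and SLC11A2 are known to lie at the other end of their mRNAs. Only 50 transcribed bases were in each window, so an element further along the mRNA of SLC40A1 or another gene could not be found. Windows from the RefSeq promoter table were searched for 6 of the 8 genes, 9 windows in all, 4 of them of SLC11A2. No window of TFR2 or SLC25A37 was searched.

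Values were log2 signals normalised over the 6 arrays with RMA, whose array medians lay between 5.29 and 5.32. A probe set was called above background on an array if it exceeded the 95th percentile of 333 olfactory receptor genes there, which lay between 4.89 and 5.01. PRMT5 had signals of 8.63, 9.65 and 9.37 in PRMT5_down replicates 1, 2 and 3, against 9.93, 10.35 and 10.30 in control replicates 1, 2 and 3. The groups did not overlap for it (exact permutation test, two-sided, p = 0.1, the lowest value possible with 3 arrays a group). With a threshold of 0.05 on the adjusted p, limma called 0 of 18132 genes (0%); before adjustment 149 (0.822%) were under 0.05. Arrays of the same replicate number resembled each other, and with the number as a replicate block limma still called 0 genes (0%), while 1496 (8.25%) had an unadjusted p under 0.05. The labelled cell type was not borne out by its markers: of 12 plasma cell genes, CD38, IRF4, TNFRSF17, MZB1, POU2AF1, IGKC and SLAMF7 were above background on no array and 4 on all 6. All 10 measured erythroid genes were above background on all 6 arrays, among them GATA1 at a mean log2 signal of 10.26 ± 0.39 in PRMT5_down and 10.12 ± 0.40 in control (SD, n = 3 each).

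None of the 8 iron genes differed between PRMT5_down and control by the limma test. Each gene was represented by its brightest probe set, and the mean log2 difference was above 0 for all 8 genes, where 43.3% of all genes stood above 0. That count was 5 of 8 without control replicate 3. The median difference of the 8 genes was 0.13, against -0.02 for all genes. Limma called 0 of 8 (all genes, 0%), and 0 had an unadjusted p under 0.05 (all genes, 0.822%). With the replicate block 0 were called, and TFRC, SLC11A2 and STEAP3 had an unadjusted p under 0.05, 3 of 8 genes against 8.25% of all genes. Within replicate numbers, TFRC, SLC11A2, STEAP3 and FTL were above their control in all 3, or 4 of 8 genes against 11.7% of all genes. None was below its control in all 3, where 15.2% of all genes were. The groups overlapped for every one of the 8 genes, while among all genes 1.26% did not overlap with PRMT5_down higher and 2.66% with PRMT5_down lower. Of the 31 probe sets, 28 had a mean difference above 0 (all probe sets, 45.7%), 2 below and 1 at 0. In all 3 replicate numbers 11 were above their control (all probe sets, 12.5%) and 1 below (14.3%), and 0 had groups that did not overlap (all probe sets, 1.49% higher and 2.43% lower). Limma called 0 of the 31 with or without the replicate block (all probe sets, 0%). An unadjusted p under 0.05 was reached by 0 without the block (all probe sets, 0.945%) and by 5 with it (8.56%). Probe sets of a gene read the same RNA and are not separate measurements.

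**Figure D1:**
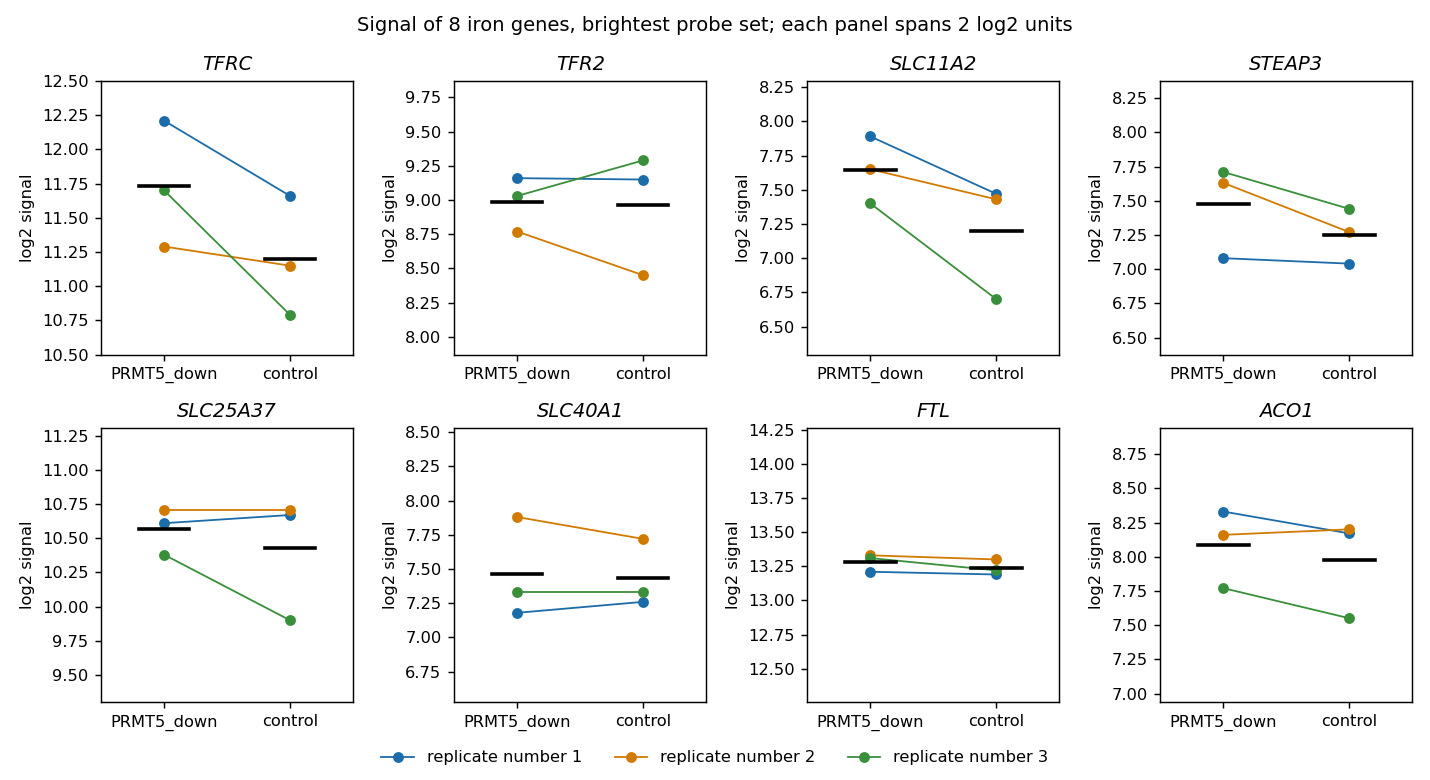
Log2 signal (y axis, each panel spanning 2 log2 units) of the brightest probe set of 8 iron genes in PRMT5_down (left) and control (right); points are arrays, lines join arrays of the same replicate number, and black bars are group means (n = 3 each). TFRC and SLC11A2 stood above their control in each replicate number by 0.14 to 0.91, while FTL spanned only 0.14 over all 6 arrays.

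TFRC, the transferrin receptor at chr3:196049284-196082090, is the main entry for transferrin-bound iron. Its brightest probe set, 11756156_s_at, had signals of 12.21, 11.29 and 11.70 in PRMT5_down replicates 1, 2 and 3, against 11.66, 11.15 and 10.79 in control replicates 1, 2 and 3. Control replicate 1 lay above PRMT5_down replicate 2, so the groups overlapped. The log2 difference was 0.53 (SE 0.31, 95% interval -0.21 to 1.28, limma adjusted p = 1), a mean ratio of 1.45. Within replicate numbers 1, 2 and 3 PRMT5_down stood at 1.46, 1.10 and 1.88 times its control. An exact permutation test (two-sided) gave p = 0.2. With the replicate block the SE was 0.14 and the adjusted p 0.52 by limma. The difference was 0.30 without PRMT5_down replicate 1 and 0.33 without control replicate 3, so each of these arrays moved it by over 1.5 times.

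All 3 TFRC probe sets ran alike. The second, 11715477_at, had 11.80, 10.91 and 11.34 in PRMT5_down replicates 1, 2 and 3, and 11.25, 10.69 and 10.35 in control replicates 1, 2 and 3. The third, 11715478_a_at, had 9.35, 8.21 and 8.64 in PRMT5_down replicates 1, 2 and 3, and 8.74, 8.15 and 7.59 in control replicates 1, 2 and 3. In both, the highest array was PRMT5_down replicate 1 and the lowest control replicate 3. Their differences were 0.59 (SE 0.31) and 0.57 (SE 0.39), and neither passed limma over 49293 probe sets (adjusted p = 1 for both). Replicate number 2 gave the smallest difference in all 3 probe sets, 0.06 to 0.22, and number 3 the largest, 0.91 to 1.05.

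The 10 erythroid genes, set beside TFRC because red cell precursors are rich in it, all had a mean difference above 0 (all genes, 43.3%). Limma called 0 of them (all genes, 0%), and 2 had an unadjusted p under 0.05 (all genes, 0.822%). With the replicate block 5 had one (all genes, 8.25%). The marker genes were chosen with earlier results of these data known, so these counts are descriptions and no independent support. Signals of the 10 erythroid genes summed to 95.7 to 97.9 in PRMT5_down and to 90.5 to 94.1 in control. The genes with the largest differences in the list were AHSP, a chaperone of alpha globin, at 1.58 (SE 0.58), and SLC4A1, the anion exchanger of red cells, at 1.00 (SE 0.36), while the list median was 0.24. AHSP had 8.75, 7.04 and 6.92 in PRMT5_down replicates 1, 2 and 3, and 6.74, 5.85 and 5.39 in control replicates 1, 2 and 3. Its groups did not overlap (all genes, 1.26% with PRMT5_down higher). Those of ALAS2 did not either, while the groups of the rest of the erythroid genes overlapped. Signals of the 12 plasma cell genes summed to 54.1 to 54.8 in PRMT5_down and to 55.1 to 56.2 in control. All 12 had a mean difference below 0 (all genes, 43.3% above 0). Limma called 0 of these (all genes, 0%), 0 had an unadjusted p under 0.05 (all genes, 0.822%), and 2 had one with the replicate block (all genes, 8.25%). Of the 12, 7 were above background on no array, and the list median was -0.07. The background level was itself lower in PRMT5_down in each replicate number. It was 4.94, 4.89 and 4.96 in PRMT5_down replicates 1, 2 and 3, and 4.98, 4.91 and 5.01 in control replicates 1, 2 and 3. The part of either set of differences in the values of TFRC and the other iron genes was not tested. In bulk RNA fewer cells of a type and less RNA per cell cannot be told apart. Over the 6 arrays, the 5 genes above background whose signals were most like those of TFRC were CARD16 (Pearson r = 0.997), TAPT1 (0.997), TOPORS (0.994), FPGT (0.993) and SOCS4 (0.991), out of 10213 genes searched. These 5 were picked as the highest on few points, so their r is high by selection. Of the genes searched, 2.59% had r over 0.9, and a share at a stricter cut was not taken. The 6 arrays share replicate numbers, so they are fewer than 6 separate points. CARD16 differed by 0.51, 0.15 and 0.77 in replicate numbers 1, 2 and 3.

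TFR2, a second transferrin receptor that acts as an iron sensor in liver and red cell precursors, lies at chr7:100620420-100641552 and had 1 probe set. Its signals were 9.16, 8.77 and 9.03 in PRMT5_down replicates 1, 2 and 3, against 9.15, 8.45 and 9.29 in control replicates 1, 2 and 3. Both the highest and the lowest value were controls. The difference was 0.02 (SE 0.24, 95% interval -0.57 to 0.61, limma adjusted p = 1), and the replicate numbers disagreed, with 0.01, 0.32 and -0.26. It was -0.063 without PRMT5_down replicate 1 and -0.23 without control replicate 2.

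SLC11A2, also called DMT1, moves iron out of the endosome and lies at chr12:50952263-51028886. The brightest of its 6 probe sets, 11744052_a_at, had 7.89, 7.65 and 7.40 in PRMT5_down replicates 1, 2 and 3, against 7.47, 7.43 and 6.70 in control replicates 1, 2 and 3. Control replicate 3 was the lowest array, and PRMT5_down replicate 3 lay below the other two controls. The difference was 0.45 (SE 0.24, 95% interval -0.15 to 1.04, limma adjusted p = 1; with the replicate block, limma adjusted p = 0.48). It was 0.20 without control replicate 3.

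The other SLC11A2 probe sets above background differed in how far they followed the brightest. 11764275_s_at had 7.25, 7.27 and 6.87 in PRMT5_down replicates 1, 2 and 3, and 7.34, 7.30 and 7.08 in control replicates 1, 2 and 3, and was below its control in all 3 replicate numbers. 11759691_a_at had 6.17, 6.55 and 6.63 in PRMT5_down replicates 1, 2 and 3, and 6.77, 6.54 and 6.74 in control replicates 1, 2 and 3. Its mean difference of -0.23 (SE 0.15) came mostly from replicate number 1, at -0.60. The probe set 11744053_a_at had its highest signal in PRMT5_down replicate 1 and its lowest in control replicate 3, as the brightest did, and differed by 0.29, -0.06 and 0.23 in replicate numbers 1, 2 and 3. The last 2 probe sets were above background on no array. SLC11A2 makes mRNAs with different starts and ends, and which of them each probe set reads was not examined here. The mean over all 6 probe sets gave a difference of 0.07, against 0.45 for the brightest.

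**Figure D2:**
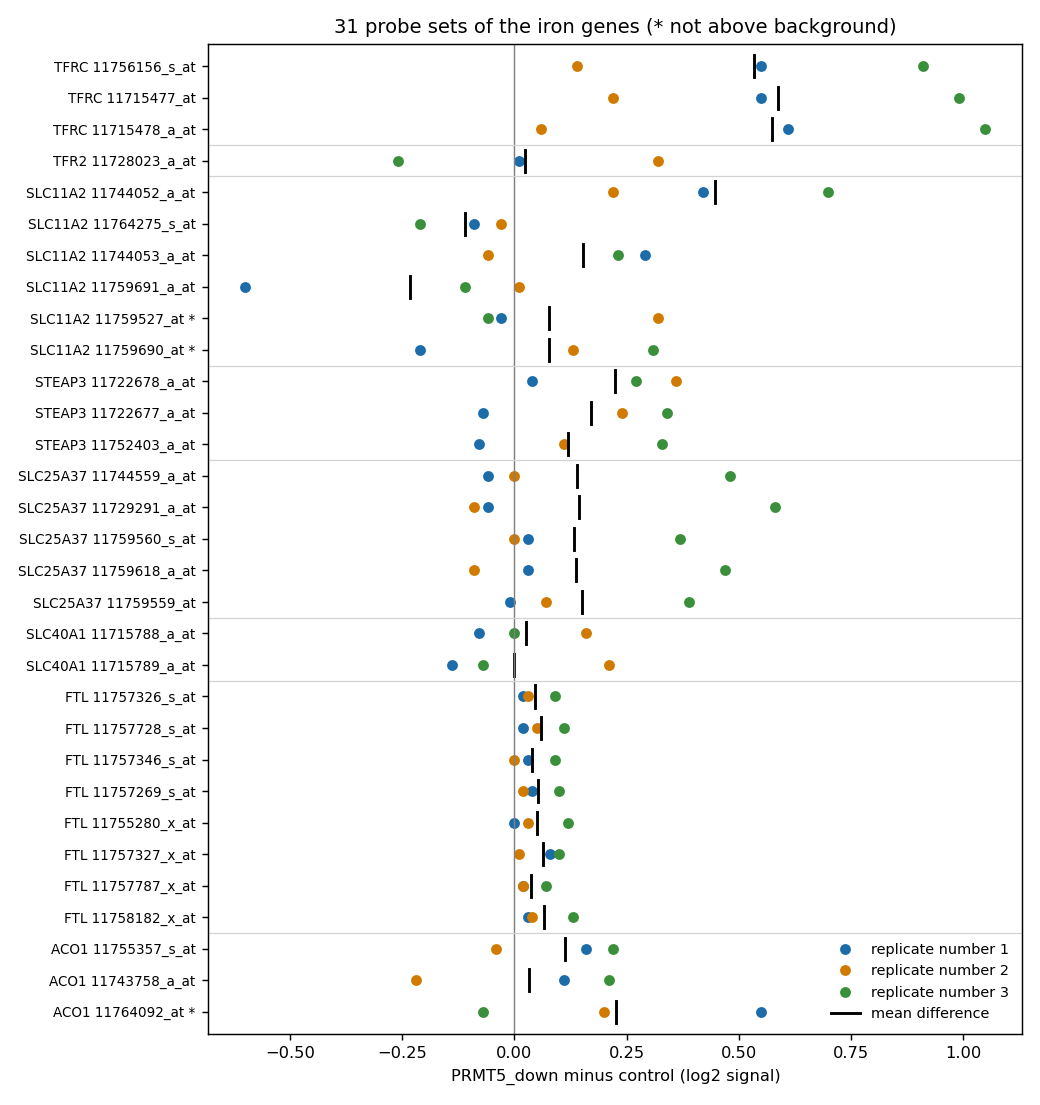
Log2 difference of PRMT5_down minus control (x axis) for each of 31 probe sets of the iron genes, ordered by gene; coloured points are the 3 replicate numbers and black ticks their mean, and asterisks mark the 3 probe sets above background on no array. The 3 TFRC probe sets lie between 0.06 and 1.05, while those of SLC11A2 fall on both sides of 0.

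STEAP3, the endosomal reductase that turns ferric into ferrous iron in red cell precursors, lies at chr2:119223834-119265652. Its brightest probe set had 7.08, 7.63 and 7.71 in PRMT5_down replicates 1, 2 and 3, against 7.04, 7.27 and 7.44 in control replicates 1, 2 and 3. Replicate number 1 was the lowest in both groups, whereas it was the highest in both for TFRC. The difference was 0.22 (SE 0.20, 95% interval -0.26 to 0.71, limma adjusted p = 1). Its other 2 probe sets, between 4.99 and 5.56 and so only just above background, differed by 0.17 and 0.12. Both were below their control in replicate number 1 and above it in numbers 2 and 3. For the brightest, leaving out 1 array gave 0.105 (PRMT5_down replicate 3), 0.12 (control replicate 1), 0.145 (PRMT5_down replicate 2) or 0.42 (PRMT5_down replicate 1).

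SLC25A37, or mitoferrin, brings iron into mitochondria for heme synthesis and lies on chromosome 8. Its brightest probe set had 10.61, 10.71 and 10.38 in PRMT5_down replicates 1, 2 and 3, against 10.67, 10.71 and 9.90 in control replicates 1, 2 and 3. Control replicate 3 stood apart from the other 5 arrays, which spanned 10.38 to 10.71. The difference was 0.14 (SE 0.24, 95% interval -0.44 to 0.72, limma adjusted p = 1), and -0.12 without control replicate 3. All 5 probe sets had nearly the same mean difference, 0.13 to 0.15, but in 2 patterns. Control replicate 3 was the lowest array in all 5. In 11744559_a_at, 11729291_a_at and 11759618_a_at it stood apart, at 9.90, 9.26 and 8.17, and the next lowest array was PRMT5_down replicate 3, at 10.38, 9.84 and 8.64. In 11759560_s_at and 11759559_at it was at 9.43 and 7.52, within 0.05 of control replicate 2 at 9.48 and 7.57, and PRMT5_down replicate 3 was the highest array, at 9.80 and 7.91.

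**Figure D3:**
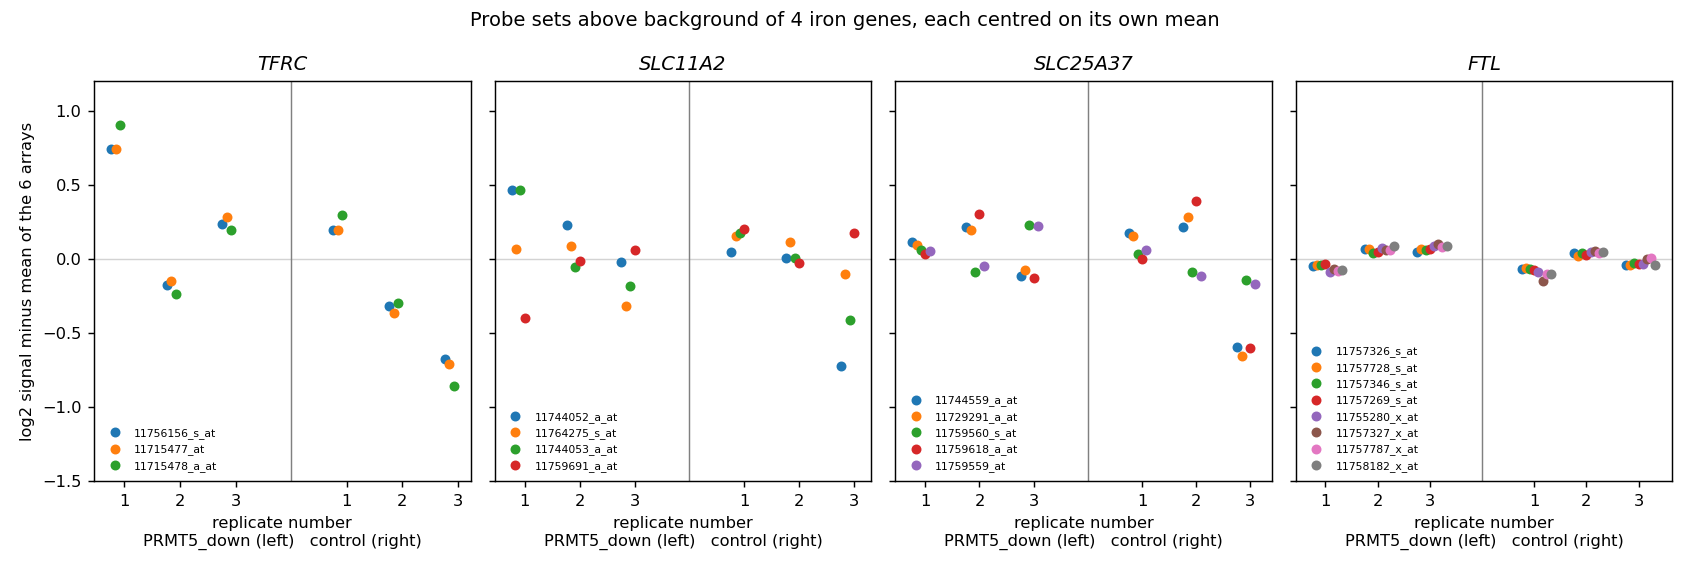
Log2 signal minus the mean of the 6 arrays (y axis) for each probe set above background of TFRC, SLC11A2, SLC25A37 and FTL, with PRMT5_down arrays left of the line and control arrays right of it; each point is 1 array and each colour 1 probe set. The probe sets of TFRC and of FTL lie close together on every array. Those of SLC11A2 scatter in replicate 1 of PRMT5_down and in control replicate 3. Those of SLC25A37 part into 2 patterns in control replicate 3.

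FTL, the light chain of ferritin and so a store of iron, lies at chr19:48965309-48966879 and varied least. Its brightest probe set had 13.21, 13.33 and 13.31 in PRMT5_down replicates 1, 2 and 3, against 13.19, 13.30 and 13.22 in control replicates 1, 2 and 3. These signals were close to the highest on the arrays, 13.66 to 13.70. The difference was 0.05 (SE 0.08, 95% interval -0.15 to 0.25, limma adjusted p = 1). All 8 FTL probe sets had mean differences of 0.04 to 0.07, and 6 of 8 were above their control in all 3 replicate numbers, against 12.5% of all probe sets. How far probes respond to further RNA at this brightness was not tested. FTL has many pseudogene copies, and the probe set suffixes _s_at and _x_at mark probes shared between transcripts, so part of their signal could come from such copies.

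SLC40A1, or ferroportin, the exporter of iron from cells, lies at chr2:189560590-189580786. Its brighter probe set had 7.18, 7.88 and 7.33 in PRMT5_down replicates 1, 2 and 3, against 7.26, 7.72 and 7.33 in control replicates 1, 2 and 3. Replicate number 2 was the highest in both groups, and the numbers differed more than the groups. The difference was 0.03 (SE 0.22, 95% interval -0.51 to 0.56, limma adjusted p = 1), and the other probe set differed by 0.00 (SE 0.17). The first was at -0.18 without PRMT5_down replicate 2, -0.062 without control replicate 1 and -0.027 without control replicate 3.

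ACO1, or iron regulatory protein 1, is a cytosolic aconitase with its iron-sulfur cluster and binds iron-responsive elements, such as that of FTL, without it. It lies at chr9:32384643-32454769. Its brightest probe set had 8.33, 8.16 and 7.77 in PRMT5_down replicates 1, 2 and 3, against 8.17, 8.20 and 7.55 in control replicates 1, 2 and 3. Replicate number 3 was the lowest in both groups. The difference was 0.11 (SE 0.23, 95% interval -0.45 to 0.67, limma adjusted p = 1), and was -0.0083 without PRMT5_down replicate 1 and -0.098 without control replicate 3. A second probe set, with means of 6.46 in PRMT5_down and 6.42 in control, differed by 0.03, and the third was above background on no array.

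The order of the replicate numbers differed between genes. Number 1 was highest in both groups for TFRC and lowest in both for STEAP3, SLC40A1 and FTL. Number 3 was lowest in both groups for SLC11A2, SLC25A37 and ACO1. Over the 6 arrays the signals of the 8 genes spanned from 0.14 for FTL to 1.42 for TFRC.

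Of 66 other genes of iron handling listed by role, 61 were measured and 47 were above background on all 6 arrays. Their mean difference was above 0 for 29 and below it for 31, with a median of -0.02, equal to that of all genes. Limma called 0 of 61 higher and 0 lower (all genes, 0%), 0 had an unadjusted p under 0.05, and with the replicate block 8 of 61 had one (all genes, 8.25%) and 0 were called. In all 3 replicate numbers 16 of 61 were above their control (all genes, 11.7%) and 10 of 61 below (all genes, 15.2%). The groups did not overlap for ALAS2, with PRMT5_down higher (all genes, 1.26%). They did not overlap either for STEAP4, BMP6 and HMOX1, with PRMT5_down lower (all genes, 2.66%), each above background on no array.

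Among 15 other uptake and transport genes, 7 had a mean difference above 0 and 8 below. SLC39A8, a zinc and iron importer, had 9.53, 8.43 and 9.04 in PRMT5_down replicates 1, 2 and 3, and 9.30, 8.18 and 8.35 in control replicates 1, 2 and 3. CYBRD1, a ferric reductase, had 7.33, 7.41 and 6.84 in PRMT5_down replicates 1, 2 and 3, and 7.14, 7.16 and 6.33 in control replicates 1, 2 and 3. Both were above their control in all 3 replicate numbers while the groups overlapped, with differences of 0.39 (SE 0.39) and 0.32 (SE 0.27). SLC39A8 was at 0.125 if PRMT5_down replicate 1 was left out, at 0.675 if PRMT5_down replicate 2 was, at 0.735 if control replicate 1 was and at 0.175 if control replicate 2 was, and at 0.088 with the mean of its probe sets. CYBRD1 was at 0.043 if control replicate 3 was left out, at 0.21 if PRMT5_down replicate 2 was, and at 0.49 if PRMT5_down replicate 3 was. VPS35, a retromer subunit that recycles the transferrin receptor, differed by 0.15 (SE 0.19).

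Of 4 genes of storage and iron chaperones, 1 had a mean difference above 0. That was NCOA4, the receptor that takes ferritin to the lysosome, with 10.59, 10.64 and 10.59 in PRMT5_down replicates 1, 2 and 3, and 10.51, 10.62 and 10.05 in control replicates 1, 2 and 3. Again control replicate 3 stood below the rest, and the difference of 0.21 (SE 0.16) was 0.04 without it. PCBP1 and PCBP2, which deliver iron to ferritin, differed by -0.09 (SE 0.11) and -0.02 (SE 0.08).

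On the export and hepcidin axis 1 of 7 genes had a mean difference above 0 and 6 below. Only HAMP, HEPH and TMPRSS6 exceeded the background level on every array, and each of them lay below 0. HJV, also below 0, did so on 4 arrays, and FLVCR1, the gene above 0, on 5. CP and BMP6 exceeded it on no array, so the count of 6 includes genes without measurable signal. HAMP, which encodes the hormone hepcidin that removes ferroportin from the membrane, had 7.84, 8.17 and 8.43 in PRMT5_down replicates 1, 2 and 3, and 8.22, 8.31 and 8.49 in control replicates 1, 2 and 3. It was below its control in all 3 numbers, with overlapping groups and a difference of -0.19 (SE 0.17). That difference was -0.04 without PRMT5_down replicate 1, -0.12 without control replicate 3 and -0.335 without PRMT5_down replicate 3, and -0.1 with the mean of its probe sets. HEPH, a ferroxidase, differed by -0.02 (SE 0.11) and TMPRSS6, a protease that restrains hepcidin, by -0.09 (SE 0.10). HAMP is mainly a liver gene, and of 8 hepatocyte markers ALB, TTR, HP, SERPINA1, FGB and APOB were above background on no array and 1 on all 6, with sums of 30.99 to 31.36 in PRMT5_down and 30.93 to 31.40 in control.

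Of 5 genes that act on the iron regulatory proteins or on TFRC mRNA, 3 had a mean difference above 0. CUL1, a scaffold of the ubiquitin ligase that degrades iron regulatory protein 2, differed by 0.15 (SE 0.11). RC3H1 and ZC3H12A, which promote mRNA decay, differed by 0.16 (SE 0.26) and -0.07 (SE 0.17). RC3H1 had 7.01 in control replicate 3, against 7.63 to 7.97 on the other 5 arrays.

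Iron-sulfur cluster assembly genes lay on both sides of 0, with 10 of 18 measured genes above 0 and 8 below, and a median difference of 0.04. GLRX5, a mitochondrial glutaredoxin that passes on clusters, had 11.18, 10.94 and 11.23 in PRMT5_down replicates 1, 2 and 3, and 10.99, 10.78 and 11.08 in control replicates 1, 2 and 3. It differed by 0.19, 0.16 and 0.15 in the 3 replicate numbers, a mean of 0.17 (SE 0.12), with overlapping groups. ISCA2 differed by 0.15 (SE 0.11) and IBA57 by -0.24 (SE 0.13), 2 partners in the late mitochondrial step, on opposite sides of 0.

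All 4 measured genes among other mRNAs with an iron-responsive element had a mean difference above 0, with a median of 0.215. ALAS2, the erythroid enzyme of the first step of heme synthesis and also one of the 10 erythroid markers, had 10.19, 10.22 and 10.48 in PRMT5_down replicates 1, 2 and 3, and 10.06, 10.14 and 9.97 in control replicates 1, 2 and 3. Its groups did not overlap (all genes, 1.26% in this direction), and the difference was 0.24 (SE 0.11, limma adjusted p = 1). CDC42BPA, a kinase of the cytoskeleton, differed by 0.28 (SE 0.28), but by 0.017 without PRMT5_down replicate 1, 0.18 without control replicate 3, 0.57 without PRMT5_down replicate 3, 0.033 with the mean of its probe sets and 0.02 with the most variable one. EPAS1, the hypoxia factor HIF-2 alpha, had 8.93, 6.95 and 8.70 in PRMT5_down replicates 1, 2 and 3, and 8.19, 6.93 and 8.89 in control replicates 1, 2 and 3. Replicate number 2 was the lowest in both groups, and the difference of 0.19 (SE 0.69) was small beside that spread.

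Of 8 genes of heme uptake and breakdown, 3 had a mean difference above 0, 4 below and SLC48A1, a heme transporter, had 0.00. BLVRA, a biliverdin reductase, differed by 0.15 (SE 0.27), FLVCR2 by -0.13 (SE 0.10) and the plasma heme binder HPX, just above background, by 0.04 (SE 0.09). HMOX1, the inducible heme oxygenase, was above background on no array. Of 10 monocyte and macrophage markers, CD14, CD163, MARCO, MS4A7 and VSIG4 were above background on no array and 4 on all 6, with sums of 47.40 to 49.99 in PRMT5_down and 47.24 to 51.35 in control.

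**Figure D4:**
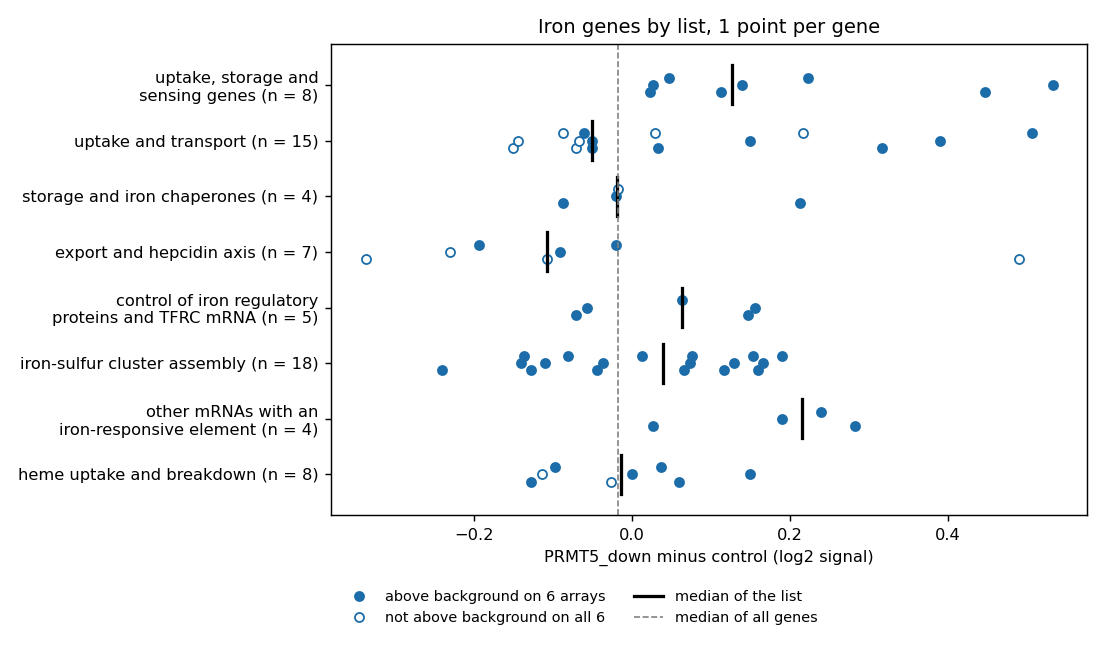
Mean log2 difference of PRMT5_down minus control (x axis) for 8 iron uptake, storage and sensing genes and 61 other iron genes by role, 1 point per gene; filled points were above background on all 6 arrays, black ticks are list medians, and the dashed line is the median of all genes. TFRC at 0.53 lies furthest right, and the lists lie on both sides of the line.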

How the data were processed

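RNA of 6 samples was measured on 1 Affymetrix array each. What was deposited are log2 signals, 1 per probe set and array, with 2 decimals, which the authors computed with RMA, as the submitters' processing notes name it (version and chip definition: not given in the sources used here). They entered the fits as deposited. Precision is limited by the 3 arrays of each group, and RMA removes differences common to most genes.

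The table of 49372 probe sets held 79 controls; of the others 44988 carried a single gene symbol, 1832 several and 2473 none. Symbols were updated through gene identifiers for 44961. For each of 18132 genes the single-symbol probe set with the highest mean signal was used. The groups were fitted with lmFit and eBayes of limma 3.58.1 (R 4.3.3), and p-values were adjusted by Benjamini-Hochberg over all genes or all 49293 probe sets that were no controls, with a threshold of 0.05. The fit was tested on simulated data.

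The gene list, the other lists and the markers were chosen with earlier results of these data known. Named were PRMT5, all listed genes, up to 3 genes above background with the smallest unadjusted p of each other list, the markers, and the 5 genes most like TFRC. GATA1 was taken from the markers, and HMOX1, SLC48A1, STEAP4, BMP6 and TF were picked with their values in view.

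The titles number replicates 1 to 3 in each group. Same-numbered arrays deviated from their group means together (r over genes of 0.82, 0.72 and 0.79, each above the minimum of 0.1). Differences within replicate numbers and a fit with the replicate block are therefore given beside the planned fit. This pairing comes from the data and not from the labels. The planned fit has no block, so every SE, interval and p-value not said to come from the replicate block leaves the pairing out.

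Alternatives were the replicate block, each array left out, quantile normalization again, the dimmest 50% of genes left out, the mean or the most variable of a gene's probe sets, and trend and robust variances. Sequences came from a RefSeq table on GRCh38.p14, and probe positions in the genome were not used.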

Additional observations from a re-analysis of the deposited data

How the results depend on the processing

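Limma called 0 genes under each of the 12 alternatives run, and no iron gene passed under any of them. The replicate block changed no call. TFRC, SLC11A2, STEAP3 and FTL kept a difference above 0 under all 12, at 0.30 to 0.76, 0.07 to 0.58, 0.10 to 0.42 and 0.02 to 0.08, with SLC11A2 at its lowest with the mean of probe sets, and PRMT5 one below 0, at -1.19 to -0.68. Before adjustment, p was under 0.05 for 149 genes in the planned fit, for 1496 under the replicate block, for 23 when the dimmest 50% of genes were dropped (the SE of FTL was 0.14 there, against 0.081 in the planned fit), for 230 with trend and robust variances, and for 92 to 285 when 1 array was left out. The 8 iron genes above 0 became 5 to 8 with 1 array left out, and the 29 other iron genes 24 to 31. With 1 array left out, differences that crossed 0 were TFR2 at -0.23 to 0.19, SLC25A37 at -0.12 to 0.28, SLC40A1 at -0.18 to 0.17, ACO1 at -0.10 to 0.27, VPS35 at -0.017 to 0.29, HEPH at -0.10 to 0.05, ZC3H12A at -0.19 to 0.10, RC3H1 at -0.12 to 0.36, EPAS1 at -0.35 to 0.81, BLVRA at -0.088 to 0.34 and HPX at -0.023 to 0.067. SLC40A1 was at 0.00 after quantile normalization again. PCBP2 was at 0.0075 with the mean of probe sets and 0.44 with the most variable probe set, and HPX at -0.059 and -0.13. For these turns, and for the change in the number of genes, the cause was not tested. With 1 array left out, CUL1 kept its sign at 0.048 to 0.21, GLRX5 at 0.082 to 0.255, ISCA2 at 0.078 to 0.22, ALAS2 at 0.15 to 0.29, IBA57 at -0.325 to -0.155, PCBP1 at -0.14 to -0.0083, TMPRSS6 at -0.14 to -0.022 and FLVCR2 at -0.19 to -0.052. FLVCR2 and HPX had no value with the dimmest 50% left out. Signal over background limits the 3 iron probe sets above it on no array.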

Other observations

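TF, the gene of transferrin, was above background on all 6 arrays and varied most among the 61 other iron genes. It had 9.59, 6.60 and 7.53 in PRMT5_down replicates 1, 2 and 3, and 8.76, 6.49 and 6.95 in control replicates 1, 2 and 3, a span of 3.10. Replicate number 1 was the highest in both groups, as it was for TFRC. Within replicate numbers 1, 2 and 3 TF differed by 0.83, 0.11 and 0.58, and over the groups by 0.51 (SE 0.91, limma adjusted p = 1; with the replicate block, limma adjusted p = 0.52). TF was chosen after its values were seen.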
